A study of Mus musculus with 25 samples.

Results

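Pyruvate carboxylase, the malic enzymes, the malate dehydrogenases, the glycerol-3-phosphate dehydrogenases, glutamate dehydrogenase and the aspartate aminotransferases were followed in the mouse islet lines αTC1 and βTC6, as 10 genes and the open chromatin around them. The genes were taken by symbol, as Pcx, Me1, Me3, Mdh1, Mdh2, Gpd1, Gpd2, Glud1, Got1 and Got2, and all 10 were found among the 24439 genes of the RNA-seq tables. Peaks of open chromatin were taken where the deposited nearest-gene annotation was one of these symbols, which gave 71 of 65053 peaks.

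The study profiled αTC1 clone 6 and beta-TC-6 (βTC6) cells by RNA-seq, with 3 libraries of each line, and by ATAC-seq, with 5 libraries of each line and 9 mixtures of known composition. ATAC-seq marks DNA that a transposase can reach, so that reads accumulate over open chromatin. Each line descends from an islet tumour of a mouse carrying SV40 T antigen, under the glucagon promoter for αTC1 and the insulin promoter for βTC6, so each stands for 1 immortal line rather than for islet cells in tissue. αTC1 cells were grown in medium with 10% serum, non-essential amino acids and 2 g/L of added glucose. βTC6 cells had another medium with 15% serum and a 10% sodium pyruvate supplement. Line and medium therefore cannot be told apart in any comparison here, and pyruvate is itself a substrate of this pathway. The glucose and pyruvate already in each base medium are not stated in the sources, so which line had more of either is not known here. Neither line received a treatment. Nothing in the sources used here ties replicates to separate cultures, so p-values measure only the spread between these libraries, which may be technical.

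Anaplerosis refills the citric acid cycle with carbon, chiefly through pyruvate carboxylase and, from glutamate, through glutamate dehydrogenase. NADH made by glycolysis in the cytosol cannot cross the inner mitochondrial membrane, and its electrons enter by the malate-aspartate shuttle or the glycerol-3-phosphate shuttle instead. Beta cells are known for high pyruvate carboxylase, active NADH shuttles and very low lactate dehydrogenase and monocarboxylate transporter, and malic enzymes return malate to pyruvate with the release of NADPH.

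The libraries matched their labels. Of the alpha cell markers, Gcg, the glucagon gene, was at 12113 to 14406 FPKM, mapped fragments scaled for transcript length and library depth, in αTC1 and 172 to 267 in βTC6, and Irx1 at 59.9 to 75.6 and 4.06 to 7.55. For 6 beta cell markers (Ins1, Ins2, Mafa, Pdx1, Nkx6-1 and Slc2a2) the sum was 13.6 to 14.9 in αTC1 and 25376 to 37992 in βTC6. Most of the βTC6 sum came from Ins2. Nearly all of the αTC1 sum came from Nkx6-1, at 13.3 to 14.1 FPKM there and 56.6 to 66.7 in βTC6. In βTC6 the delta cell hormone Sst and the PP cell hormone Ppy were also present, at 207 to 325 and 3.70 to 50.8 FPKM. Their part in the results was not tested. The other delta marker, Hhex, was at 0.02 FPKM or less in βTC6 and at 0.06 to 0.13 in αTC1. The 3 acinar markers summed to 3.61 to 3.73 FPKM in αTC1 and 0.17 to 0.90 in βTC6, nearly all of it from Cela1, which was called higher in αTC1, with Cpa1 and Pnlip at 0.08 or less, and their part in the results was not tested either. Markers of duct, fibroblast, endothelial cells and leukocytes each summed, by cell type, to at most 0.28 FPKM in any library. RNA-seq libraries held 21795367 to 25876765 gene counts, and pure ATAC-seq libraries 4397851 to 10374903 reads in peaks. αTC1 RNA-seq replicates 1 and 2 differed by a chi-square of 2.06 per degree of freedom, against 27.8 and 29.3 for each of them with replicate 3, which thus stood apart, and against 17.3 to 38.4 between βTC6 replicates. ATAC-seq replicates 1 to 3 of each line differed by 2.05 to 2.55, and other pairs within a line by 4.47 to 11.3. Counting αTC1 RNA-seq replicates 1 and 2 as 1 library left all 9 calls below in place, and counting ATAC-seq replicates 1 to 3 as 1 library per line gave 46 peaks called higher in βTC6 and 12 in αTC1, against 46 and 15 with every library.

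Sequences from the centres of 6 peaks are shown first: the peak nearest to Gpd1, whose RNA changed most of the 10, and 5 peaks away from the starts of Me3, Me1, Mdh1 and Got2 that passed a log2 fold change of 2 between the lines. Distances are the deposited ones, which for 69 of the 71 peaks lie within 747 bp of the distance from the gene's 5′ end. The Me1 intron peak and 1 Pcx peak were placed against the start of another transcript, and for Me1 the distance from the gene's 5′ end is given. Each is 200 bases of the mm9 plus strand, in lower case. Capitals mark exact matches to a motif searched on both strands: CACGTG, the E-box of USF and ChREBP, in the Gpd1 window, TGTTTAC, a forkhead motif, in the Mdh1 window and the nearer Got2 window, and TAATTA, a homeodomain core, in the nearer Got2 window.
Gpd1, peak 2165 bp upstream, chr15:99545759-99545958: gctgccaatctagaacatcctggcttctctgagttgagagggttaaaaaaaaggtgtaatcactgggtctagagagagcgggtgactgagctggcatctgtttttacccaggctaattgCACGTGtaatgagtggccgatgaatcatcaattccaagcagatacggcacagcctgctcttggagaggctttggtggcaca
Me3, peak 1898 bp upstream, chr7:96779330-96779529: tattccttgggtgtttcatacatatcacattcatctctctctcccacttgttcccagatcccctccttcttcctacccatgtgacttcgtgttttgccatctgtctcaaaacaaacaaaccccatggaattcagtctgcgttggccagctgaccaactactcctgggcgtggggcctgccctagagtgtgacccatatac
Me1, peak 27530 bp into the gene, chr9:86562318-86562517: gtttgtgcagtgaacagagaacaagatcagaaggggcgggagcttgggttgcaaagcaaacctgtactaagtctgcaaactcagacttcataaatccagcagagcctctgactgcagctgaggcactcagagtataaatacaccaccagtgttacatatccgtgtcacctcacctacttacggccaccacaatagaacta
Mdh1, peak 11888 bp into the gene, chr11:21459949-21460148: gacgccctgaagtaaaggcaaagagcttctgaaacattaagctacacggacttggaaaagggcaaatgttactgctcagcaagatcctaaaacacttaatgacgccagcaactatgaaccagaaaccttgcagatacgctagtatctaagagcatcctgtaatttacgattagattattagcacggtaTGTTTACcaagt
Got2, peak 1075665 bp upstream, chr8:99487831-99488030: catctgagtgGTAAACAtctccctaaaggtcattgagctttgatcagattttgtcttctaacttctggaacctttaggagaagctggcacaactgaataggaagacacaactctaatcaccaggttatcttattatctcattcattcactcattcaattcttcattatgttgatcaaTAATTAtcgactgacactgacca
Got2, peak 1094879 bp upstream, chr8:99507044-99507243: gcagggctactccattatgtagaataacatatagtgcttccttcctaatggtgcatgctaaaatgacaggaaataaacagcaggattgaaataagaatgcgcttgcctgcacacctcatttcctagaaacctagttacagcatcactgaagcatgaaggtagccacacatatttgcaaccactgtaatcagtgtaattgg
The Gpd1 peak lay upstream of the gene, the first Me3 peak upstream, the Me1 peak in an intron, the Mdh1 peak inside the gene and the Got2 peaks in a long stretch with few genes. The Mdh1 peak as a whole touched an exon, but the bases shown held none. The Got2 peaks 228261 and 955336 bp upstream changed more between the lines than the one 1075665 bp upstream. Their centres are not shown and held no motif match. A match describes letters only, and such matches were not particular to these genes: CACGTG was found in the centres of 2 of the 71 peaks (2.82%) and of 3.72% of all peaks, TAATTA in 5 (7.04%) against 6.93%, TGTTTAC in 9 (12.7%) against 6.31%, and TGACGTCA, the cAMP response element, in 0 against 0.761%. These shares were not tested.

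The study asked how the lines differ in expression and open chromatin. Genes were compared with edgeR's quasi-likelihood test on expected counts, among the 12195 genes that reached an FPKM of 1 in every library of at least 1 line, and a gene was called at an adjusted p (false discovery rate, FDR) under 5%. Every log2 fold change sets βTC6 over αTC1, so that a negative value stands for a higher level in αTC1. Of the 10 enzymes, 5 were called higher in βTC6, 4 higher in αTC1 and 1 was not called. Among all genes tested 38.7% were called higher in βTC6 and 36.0% higher in αTC1, 74.6% in all, so the number of calls by itself is close to the background. Only Gpd1 also passed an absolute log2 fold change of 2, where 10.2% of all genes passed toward βTC6 and 4.08% toward αTC1. The median log2 fold change was 0.28 over the 10 enzymes and 0.01 over all genes tested.

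**Figure D1:**
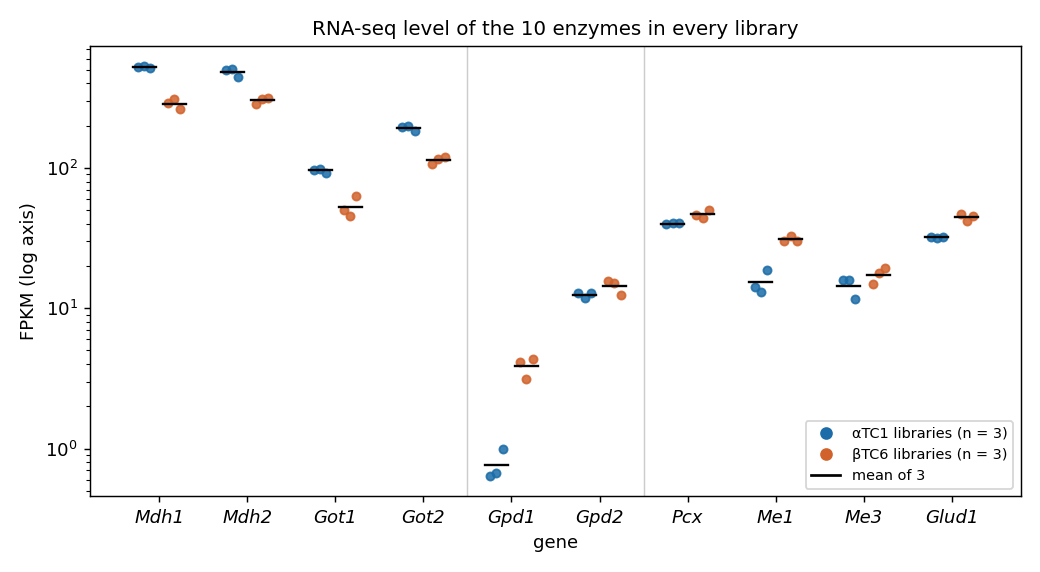
RNA-seq level of the 10 enzymes as FPKM on a log axis, with each of the 3 αTC1 and 3 βTC6 libraries as a point and the mean of 3 as a bar. The 4 malate-aspartate shuttle enzymes at the left sat lower in all βTC6 libraries, and Gpd1 sat higher in all of them.

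In these bulk libraries, where fewer cells of a type and less RNA per cell cannot be told apart, all 4 enzymes of the malate-aspartate shuttle were lower in βTC6, by 0.63 to 0.82 on the log2 scale, and both enzymes of the glycerol-3-phosphate shuttle were called higher, Gpd2 with overlap between the lines.
Mdh1 makes malate in the cytosol and is the step that takes up NADH there. Its FPKM was 523, 529 and 517 in αTC1 and 289, 308 and 262 in βTC6. The lines did not overlap, and Mdh1 was 1.68-fold higher in αTC1 (log2 fold change -0.75, SE 0.10, edgeR adjusted p = 9.3e-05).
Mdh2, its mitochondrial partner, was at 502, 506 and 444 FPKM in αTC1 and at 285, 309 and 317 in βTC6. Again every αTC1 library lay above every βTC6 library, with a log2 fold change of -0.63 (SE 0.09, edgeR adjusted p = 0.00019).
Got1, the cytosolic aspartate aminotransferase, was at 96.7, 98.8 and 92.1 FPKM in αTC1 and 50.3, 45.2 and 62.6 in βTC6, and Got2, the mitochondrial form, at 196, 199 and 183 against 107, 116 and 119. Neither gene overlapped between the lines, and the log2 fold changes were -0.82 (SE 0.10, edgeR adjusted p = 7.3e-05) and -0.69 (SE 0.08, edgeR adjusted p = 6.1e-05). Got2 has an annotated pseudogene, Got2-ps1, and reads that could come from either were divided by estimate when the counts were made.

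Gpd1 is the cytosolic glycerol-3-phosphate dehydrogenase, which passes NADH electrons to glycerol-3-phosphate. Its FPKM was 0.64, 0.67 and 0.99 in αTC1 and 4.14, 3.12 and 4.38 in βTC6, from 40.7 to 64.5 and 233 to 310 counts per library. Although every βTC6 library was above every αTC1 library, Gpd1 was the lowest of the 10 enzymes in both lines. It was 5.32-fold higher in βTC6 (log2 fold change 2.41, SE 0.21, edgeR adjusted p = 7e-06).
Gpd2, the mitochondrial enzyme of the same shuttle, was at 12.8, 11.9 and 12.7 FPKM in αTC1 and 15.6, 15.0 and 12.3 in βTC6. βTC6 replicate 3 fell within the αTC1 range, and the log2 fold change of 0.32 (SE 0.10, edgeR adjusted p = 0.015) lost its call without βTC6 replicate 1 (0.26) or replicate 2 (0.27).
Gpd1l, a relative of Gpd1 encoded by another gene, had more transcript than Gpd1 in both lines and changed the other way. Its FPKM was 13.5, 13.7 and 12.4 in αTC1 and 8.28, 7.77 and 7.83 in βTC6, with no overlap (log2 fold change -0.65, SE 0.09, edgeR adjusted p = 0.00012).

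Pcx, which carboxylates pyruvate to oxaloacetate, was at 39.6, 40.4 and 40.2 FPKM in αTC1 and 46.3, 44.0 and 50.3 in βTC6. The ranges did not overlap, but the difference was small, with a log2 fold change of 0.28 (SE 0.07, edgeR adjusted p = 0.0069). The median log2 fold change was 0.25 over 415 genes of its chromosome 19 and 0.50 over 100 genes within 2 Mb. Pcx lay just above the first and below the second, and the part of the region in its change was not tested.
Glud1, which interconverts glutamate and 2-oxoglutarate, was at 32.3, 31.6 and 32.2 FPKM in αTC1 and 46.9, 41.8 and 45.6 in βTC6 (log2 fold change 0.62, SE 0.08, edgeR adjusted p = 7.4e-05). All βTC6 libraries were higher. Glud1 lies on chromosome 14, where the median log2 fold change was 1.2 over 415 genes and 1.54 over 2830 peaks, and within 2 Mb of it the medians were 0.85 over 8 genes and 1.66 over 98 peaks. The log2 fold changes of Glud1 and of its peak lay below all 4 medians, and the part of the chromosome in them was not tested.
Me1, the cytosolic NADP-dependent malic enzyme, was at 14.1, 13 and 18.9 FPKM in αTC1 and 30.3, 32.5 and 30.1 in βTC6. It was the other enzyme with a change over 2-fold, at 2.1-fold higher in βTC6 (log2 fold change 1.07, SE 0.13, edgeR adjusted p = 7.5e-05), and its highest αTC1 value came from replicate 3.
Me3, a mitochondrial malic enzyme, was at 16.0, 15.8 and 11.7 FPKM in αTC1 and 15.0, 17.8 and 19.2 in βTC6. These ranges overlapped and Me3 was not called (log2 fold change 0.28, SE 0.15, edgeR adjusted p = 0.12), although it was without βTC6 replicate 1 (0.39), and without αTC1 replicate 3 the log2 fold change was 0.14. The first exons of Me1 and Me3 overlap the genes A330041J22Rik and A230065N10Rik on the opposite strand, and the counting, at default settings, did not use strand, so reads from these overlaps cannot be told apart.

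By mean FPKM, which is per transcript length, the order in αTC1 was Mdh1, Mdh2, Got2, Got1, Pcx, Glud1, Me1, Me3, Gpd2 and Gpd1. There the range of Me3 overlapped those of Me1 and Gpd2, and the other neighbours were apart. In βTC6 the order was Mdh2, Mdh1, Got2, Got1, Pcx, Glud1, Me1, Me3, Gpd2 and Gpd1, with overlap between Mdh2 and Mdh1, among Got1, Pcx and Glud1, and between Me3 and Gpd2. Mdh1 and Mdh2 were thus the most abundant transcripts of the 10 in both lines, also in βTC6, where both were lower.

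Ratios within a library do not depend on how libraries are scaled against each other. Each was tested by an exact two-sided permutation test on the log2 ratio, for which 3 against 3 libraries allow no p below 0.1, and 5 ratios were compared.
The Gpd1 to Gpd2 ratio was 0.05, 0.0562 and 0.0777 in αTC1 and 0.266, 0.207 and 0.355 in βTC6 (log2 difference 2.16, exact permutation p = 0.1, adjusted p = 0.17). It was higher in 3 of 3 βTC6 libraries, the most separated order this test can see. Gpd1 was below 1 FPKM in αTC1, and with 1 added to each FPKM the difference was 1.28.
Pcx relative to Pdha1, a subunit of pyruvate dehydrogenase, the enzyme that competes with it for pyruvate, was 0.452, 0.475 and 0.514 in αTC1 and 0.795, 0.665 and 0.825 in βTC6 (log2 difference 0.66, exact permutation p = 0.1, adjusted p = 0.17). These did not overlap either. Relative to Pdhb, the partner of Pdha1 in the same enzyme, Pcx went the other way, at 0.741, 0.729 and 0.856 in αTC1 and 0.461, 0.374 and 0.482 in βTC6, a ratio added after its values were seen and not tested.
Cytosolic and mitochondrial partners of the malate-aspartate shuttle kept nearer ratios. Got1 to Got2 was 0.494, 0.497 and 0.504 in αTC1 against 0.470, 0.388 and 0.525 in βTC6, with overlap (log2 difference -0.12, exact permutation p = 0.5, adjusted p = 0.5), and the difference was -0.005 without βTC6 replicate 2 and -0.22 without replicate 3. Mdh1 to Mdh2 was 1.04, 1.05 and 1.16 against 1.01, 0.998 and 0.826, without overlap (log2 difference -0.20, exact permutation p = 0.1, adjusted p = 0.17), and the difference was -0.11 without βTC6 replicate 3. Me1 to Me3 was 0.879, 0.827 and 1.61 against 2.02, 1.83 and 1.57, overlapping through αTC1 replicate 3 (log2 difference 0.77, exact permutation p = 0.2, adjusted p = 0.25).

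The genes around these enzymes were followed as a list of 47, of which 44 were tested. Of these, 9 were called higher in βTC6 and 30 higher in αTC1, where all genes tested gave 38.7% and 36.0%, and the median log2 fold change was -0.52. With spike-in scaling, described below, 2 and 11 were called, where all genes tested gave 17.5% and 11.8%. Past a log2 fold change of 2 were 0 toward βTC6 and 5 toward αTC1, where all genes tested gave 10.2% and 4.08%.
Pyruvate and lactate metabolism held 4 of those 5. Slc16a1, the monocarboxylate transporter that carries lactate and pyruvate across the plasma membrane, was at 19.7, 19.3 and 18.4 FPKM in αTC1 and 1.22, 1.66 and 1.87 in βTC6 (log2 fold change -3.54, SE 0.15). Ldha, a lactate dehydrogenase subunit, was at 255, 255 and 597 against 27.6, 63.0 and 40.0 FPKM (log2 fold change -3.02, SE 0.41), and Ldhb, the other subunit, at 72.5, 69.6 and 56.4 against 7.06, 7.07 and 13.2 (-2.81, SE 0.23). The high Ldha value was again αTC1 replicate 3, and Slc16a1, Ldha and Ldhb did not overlap between the lines. Pdk2, a kinase that inhibits pyruvate dehydrogenase, fell by 2.44 (SE 0.12). In this group 9 of 10 were higher in αTC1, and Pdhb, a pyruvate dehydrogenase subunit, was the exception at 1.11 (SE 0.10).
Among mitochondrial carriers 5 of 8 were higher in αTC1 and 2 in βTC6. Slc25a13 and Slc25a12, the aspartate-glutamate carriers of the malate-aspartate shuttle, were lower in βTC6 like the enzymes, by log2 fold changes of -2.47 (SE 0.15) and -0.67 (SE 0.07). Slc25a11, the 2-oxoglutarate and malate carrier of the same shuttle, moved the other way, at 0.64 (SE 0.06), so the shuttle as a whole did not shift in 1 direction. Mpc1 and Mpc2, the subunits of the mitochondrial pyruvate carrier, were lower in βTC6 (-1.73, SE 0.12, and -1.01, SE 0.10).
In the citric acid cycle 12 of 15 genes were higher in αTC1 and 1 in βTC6. Of 5 genes of NADPH and citrate export 3 were higher in βTC6 and 1 in αTC1. Acly, which cleaves exported citrate, was at 123, 122 and 113 FPKM in αTC1 and 471, 412 and 463 in βTC6 (log2 fold change 1.96, SE 0.09). Of 6 glutamate, alanine and phosphoenolpyruvate enzymes 2 were higher in βTC6 and 3 in αTC1.

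**Figure D2:**
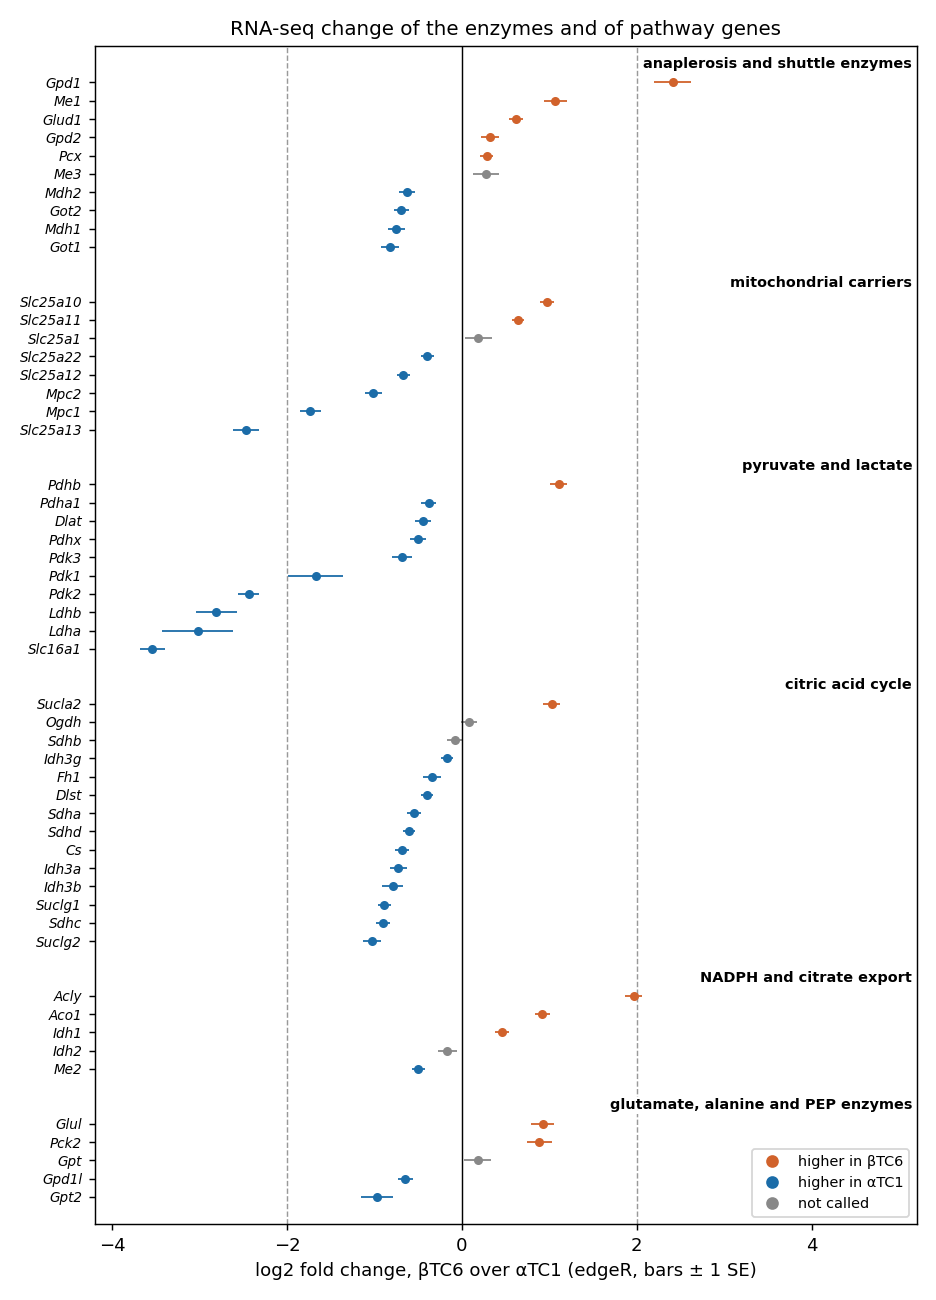
Log2 fold change of βTC6 over αTC1 from edgeR for the 10 enzymes and 42 of the 44 tested genes around them, by role, with bars of 1 SE and dashed lines at a log2 fold change of 2 either way. Orange points were called higher in βTC6, blue points higher in αTC1 and grey points not called. Slc16a1, Ldha and Ldhb lie farthest to the left at -3.54, -3.02 and -2.81, and Gpd1 farthest to the right at 2.41.

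The scaling between RNA-seq libraries bore on these calls. With libraries scaled by their ERCC spike-in RNA alone, whose share of counts ran from 0.436% to 0.971% and varied within lines, 2 enzymes were called higher in βTC6, Gpd1 (log2 fold change 2.35) and Me1 (1.04), and 0 higher in αTC1. Among all genes tested the shares called fell to 17.5% and 11.8%, so the loss was not limited to the enzymes. The other 8 enzymes kept their sign and were not called. The log2 fold changes of Mdh1 (-0.78), Mdh2 (-0.68), Got1 (-0.88) and Got2 (-0.74) were no smaller in size than with TMM scaling, while their adjusted p rose to between 0.10 and 0.24 in edgeR.

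ATAC-seq peaks were compared with limma on log2(normalized read count + 1), a scale that understates the change of low peaks. Of the 71 peaks 46 were called higher in βTC6, 15 higher in αTC1 and 10 were not called, against 39.9% and 38.1% of all peaks. Past a log2 fold change of 2 were 17 toward βTC6, where the background was 12.9%, and 2 toward αTC1, where it was 5.38%. The 17 became 3 with a pseudocount of 5, where the background was 2.56%, 8 with quantile normalization (8.54%) and 27 with edgeR on recovered reads (21.2%). The excess toward βTC6 came with 1 gene. Got2 carried 35 of the 71 peaks, 31 of them higher in βTC6, and without it 15 of 36 were higher in βTC6 and 14 in αTC1, with 3 and 2 past the fold.

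**Figure D3:**
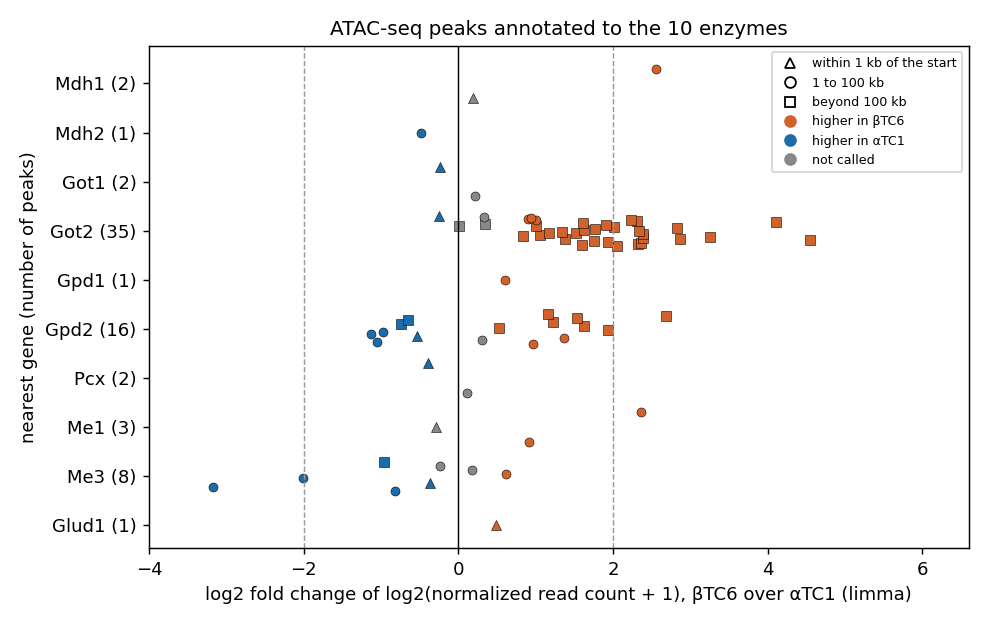
Log2 fold change of the 71 ATAC-seq peaks by nearest gene, with the number of peaks in brackets, the shape showing the deposited distance to the start site and the colour the limma call. Dashed lines mark a log2 fold change of 2 either way. Peaks within 1 kb of a start lie between -0.53 and 0.48, and most of those beyond 2 belong to Got2.

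At the starts of the genes the chromatin changed little in the fit reported. The peak nearest to each start had a log2 fold change from -0.53 to 0.61, and its sign was that of the RNA in 5 of 10 genes and the opposite in 5. Quantile normalization took the Mdh1 start peak outside this range and turned the sign of others, as given below. Over all peaks within 1 kb of a start 22.3% were called higher in βTC6 and 53.6% higher in αTC1, with a median of -0.33.
For Gpd1, whose RNA rose most, the nearest peak was 2165 bp upstream, at 18.8, 15.2, 16.8, 17.7 and 16.6 normalized reads in αTC1 and 25.0, 22.8, 28.2, 30.7 and 26.1 in βTC6. It was higher in every βTC6 library (log2 fold change 0.61, SE 0.11, limma adjusted p = 4.7e-05).
The Glud1 peak, 115 bp past the start, was also higher in βTC6, with means of 41.8 ± 4.14 and 58.9 ± 6.64 (SD, n = 5) and a log2 fold change of 0.48 (SE 0.10, limma adjusted p = 0.00015). The Gpd2 start peak went against its RNA, at 70.3 ± 3.55 in αTC1 and 48.7 ± 6.39 in βTC6 (SD, n = 5, log2 fold change -0.53, SE 0.09, limma adjusted p = 3.4e-05), although quantile normalization moved it to -0.08, which was not called. Start peaks of Pcx (-0.39), Me3 (-0.36), Got1 (-0.23) and Got2 (-0.25) were called higher in αTC1, but with quantile normalization their signs turned to 0.07, 0.02, 0.24 and 0.22. The Got1 peak also lost its call without αTC1 replicate 3 (-0.19) or 5 (-0.21), or βTC6 replicate 2 (-0.20), 3 (-0.23) or 4 (-0.20). With replicates 4 and 5 alone the Me3 (-0.38), Got1 (-0.24) and Got2 (-0.17) peaks lost their calls. Got1 (-0.24) and Got2 (-0.21) also did with replicates 1 to 3 of each line counted as 1 library.
The start peaks of Mdh1 (log2 fold change 0.19, SE 0.09, limma adjusted p = 0.062) and Me1 (-0.28, SE 0.17, limma adjusted p = 0.14) were not called. The Me1 peak was at -0.43 and called without αTC1 replicate 5, and at -0.15 without βTC6 replicate 4. The Mdh1 peak was called without αTC1 replicate 5 (0.23) or βTC6 replicate 1 (0.24). With quantile normalization its log2 fold change was 0.73, opposite in direction to Mdh1 RNA. Mdh2 had a single annotated peak, 16002 bp from its start and lower in βTC6 (-0.48, SE 0.13, limma adjusted p = 0.0025). This peak lost its call with replicates 4 and 5 alone (-0.54). The peak over the Mdh2 start itself was annotated to Styxl1, which starts beside it in the other direction, and was at 58.6 ± 6.74 and 50.7 ± 4.04 (SD, n = 5, limma adjusted p = 0.063).

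Because the malate-aspartate enzymes moved together in RNA, the 150 bases upstream of the annotated start of Mdh1, Got1 and Got2 are shown, from mm9 and read 5′ to 3′ on the strand of the gene. The Mdh2 window is left out because it overlaps a transcribed exon of Styxl1.
Mdh1, chr11:21472371-21472520, minus strand: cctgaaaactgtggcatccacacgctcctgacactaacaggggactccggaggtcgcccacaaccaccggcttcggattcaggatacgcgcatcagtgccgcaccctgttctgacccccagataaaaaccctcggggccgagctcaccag
Got1, chr19:43599096-43599245, minus strand: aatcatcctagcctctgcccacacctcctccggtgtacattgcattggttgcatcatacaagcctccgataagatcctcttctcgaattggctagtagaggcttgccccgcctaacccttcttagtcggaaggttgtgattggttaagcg
Got2, chr8:98412448-98412597, minus strand: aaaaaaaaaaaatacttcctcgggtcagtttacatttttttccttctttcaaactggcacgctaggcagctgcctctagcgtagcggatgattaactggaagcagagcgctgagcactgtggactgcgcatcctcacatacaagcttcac
No match to the 4 motifs fell in these bases. Over 250 bases upstream of the 10 enzymes, CACGTG occurred at Pcx, 248 to 243 bases before the start, and TGTTTAC at Mdh1, 247 to 241 bases before it. The other 8 windows held no match. Of 22380 such windows at protein-coding genes 6.51% held CACGTG, 2.73% TGTTTAC, 4.62% TAATTA and 1.91% TGACGTCA.

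Away from the starts some peaks were open in 1 line and nearly closed in the other. The Me3 peak 1898 bp upstream (chr7:96779146-96779713), whose centre is shown above, had 39.2, 38.8, 40.4, 35.8 and 42.2 normalized reads in αTC1 and 3.55, 4.10, 5.00, 3.14 and 2.07 in βTC6. It was the strongest αTC1 peak of the 71 (log2 fold change -3.17, SE 0.16, limma adjusted p = 1.3e-12), next to a gene whose RNA was not called. A second Me3 peak, 12301 bp into the gene in an intron, was at 29.9 ± 2.06 and 6.88 ± 1.85 (SD, n = 5). Its log2 fold change of -2.003 lay at the threshold, and leaving out single libraries gave -2.11 to -1.89.
The Mdh1 peak 11888 bp inside the gene (chr11:21459651-21460446) went the other way, with 1.12, 2.53, 1.05, 2.32 and 1.44 normalized reads in αTC1 and 15.6, 13.5, 10.1, 20.3 and 14.4 in βTC6. All βTC6 libraries were far above all αTC1 libraries (log2 fold change 2.56, SE 0.23, limma adjusted p = 3.6e-09), while Mdh1 RNA was higher in αTC1.
In an intron of Me1, 27530 bp from the gene's 5′ end (chr9:86562166-86562668), the values were 0.98, 0.42, 0.15, 0.14 and 0.14 in αTC1 and 4.69, 7.18, 4.46, 9.56 and 4.69 in βTC6. The lines did not overlap (log2 fold change 2.36, SE 0.22, limma adjusted p = 8.8e-09), but this was a low peak. Gpd2 had 1 peak past the fold, 376335 bp from its start and beyond the end of the gene, at 1.96 ± 0.692 in αTC1 and 17.8 ± 2.93 in βTC6 (SD, n = 5, log2 fold change 2.69, SE 0.21, limma adjusted p = 6.7e-10).

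The Got2 peaks formed a group of their own. Of its 35 peaks 30 lay more than 100 kb upstream, from 120 to 1612 kb, and 28 of these were called higher in βTC6, 0 in αTC1, with 14 past the fold and a median of 1.92. Peaks over 100 kb from any start already leaned the same way, with 59.0% called higher in βTC6 and 23.8% in αTC1, 21.8% past the fold toward βTC6 and a median of 0.91. Whether the Got2 peaks exceed that background was not tested, since neighbouring peaks are not independent.
The farthest from 0 lay 1094879 bp upstream (chr8:99506743-99507544), at 2.38, 1.83, 1.954, 1.23 and 0.87 normalized reads in αTC1 and 63.6, 60.1, 53.4, 56.2 and 65.6 in βTC6 (log2 fold change 4.55, SE 0.16, limma adjusted p = 1.5e-14). Another, 228261 bp upstream, was at 0.98, 1.54, 1.35, 1.77 and 1.01 against 43.7, 45.9, 31.2, 39.1 and 36.1 (4.11, SE 0.17, limma adjusted p = 8.1e-14). Neither overlapped between the lines. Further peaks 955336 and 1075665 bp upstream had log2 fold changes of 3.26 (SE 0.15) and 2.87 (SE 0.23).
Got2 is the nearest start only in the sense of the annotation. The stretch held 1 other protein-coding gene in the annotation used, 1700047G07Rik, at 1.08, 1.06 and 2.50 FPKM in αTC1 and 0.92, 0.69 and 1.80 in βTC6, with overlap. Got2 RNA itself was lower in βTC6, opposite in direction to these distant peaks.

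**Figure D4:**
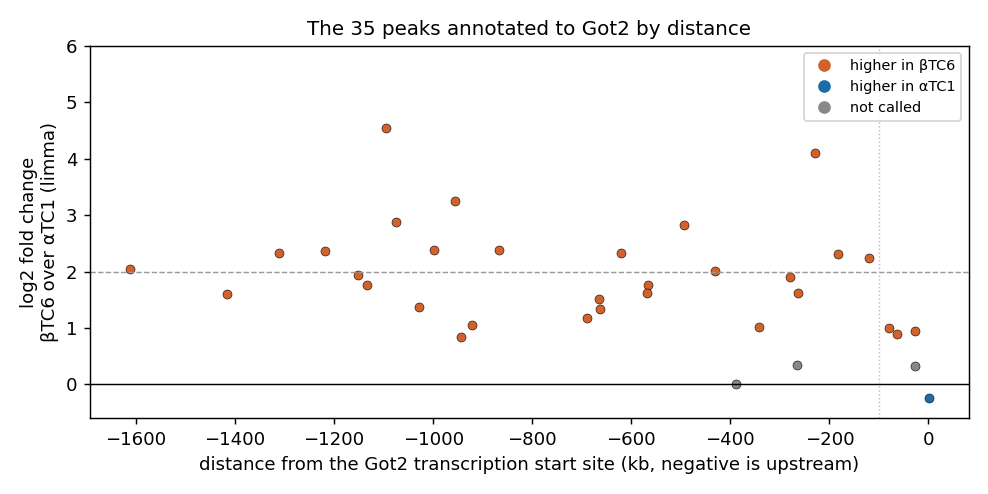
Log2 fold change of the 35 peaks annotated to Got2 against the distance from its start in kb, with upstream to the left, the dotted line at 100 kb and the dashed line at a log2 fold change of 2. Beyond 100 kb 28 of 30 peaks are orange (higher in βTC6), while the peak at the start is blue at -0.25, a sign that turned with quantile normalization.

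Mixtures of the lines gave libraries that had not entered these comparisons. They hold the same lines, so a peak that differs between the pure libraries should follow the share of αTC1 cells. A pass is therefore no independent support for a difference between the lines. For each gene the peak with the largest moderated t in the pure libraries was set against the share of αTC1 cells in the 9 mixtures, from 10% to 90%, with an exact two-sided permutation test and adjustment over the 10 peaks. With Pearson's r 7 of 10 peaks had an adjusted p under 0.05, and 3 did without the mixtures of 10% and 90%.
The Got2 peak 1094879 bp upstream fell from 62.0 normalized reads at 10% αTC1 to 29.7 at 50% and 4.06 at 90% (r = -0.98, exact permutation p = 3.3e-05, adjusted p = 0.00030; Spearman's rho = -0.97, adjusted p = 0.00055). The Mdh1 peak inside the gene fell from 13.3 to 9.79 and 1.42 (r = -0.97, exact permutation adjusted p = 0.00030; rho = -0.98, adjusted p = 0.00050). The Me3 peak upstream rose from 8.34 to 26.0 and 33.3 (r = 0.93, exact permutation adjusted p = 0.0010; rho = 0.97, adjusted p = 0.00055). These 3 were the peaks that passed without the outermost mixtures, with r of -0.96, -0.95 and 0.92 and an exact permutation adjusted p of 0.0066 each.
Glud1 (r = -0.87), Pcx (0.80), Mdh2 (0.77) and Gpd2 (-0.76) passed with Pearson's r but not without the outermost mixtures, and for Mdh2 Spearman's rho of 0.70 gave an exact permutation adjusted p of 0.062. Gpd1 (r = -0.59, exact permutation adjusted p = 0.12) and Got1 (r = 0.04, exact permutation adjusted p = 0.91) did not pass.
The Me1 intron peak stood out among those with a large change between the lines. It was at 2.42 normalized reads in the mixture with 10% αTC1, below all 5 pure βTC6 libraries, and at 0.94 to 3.53 over the 9 mixtures (r = -0.20, exact permutation adjusted p = 0.67). In whole reads this peak held 1 to 7 in each αTC1 library and 33 to 67 in each βTC6 library.

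**Figure D5:**
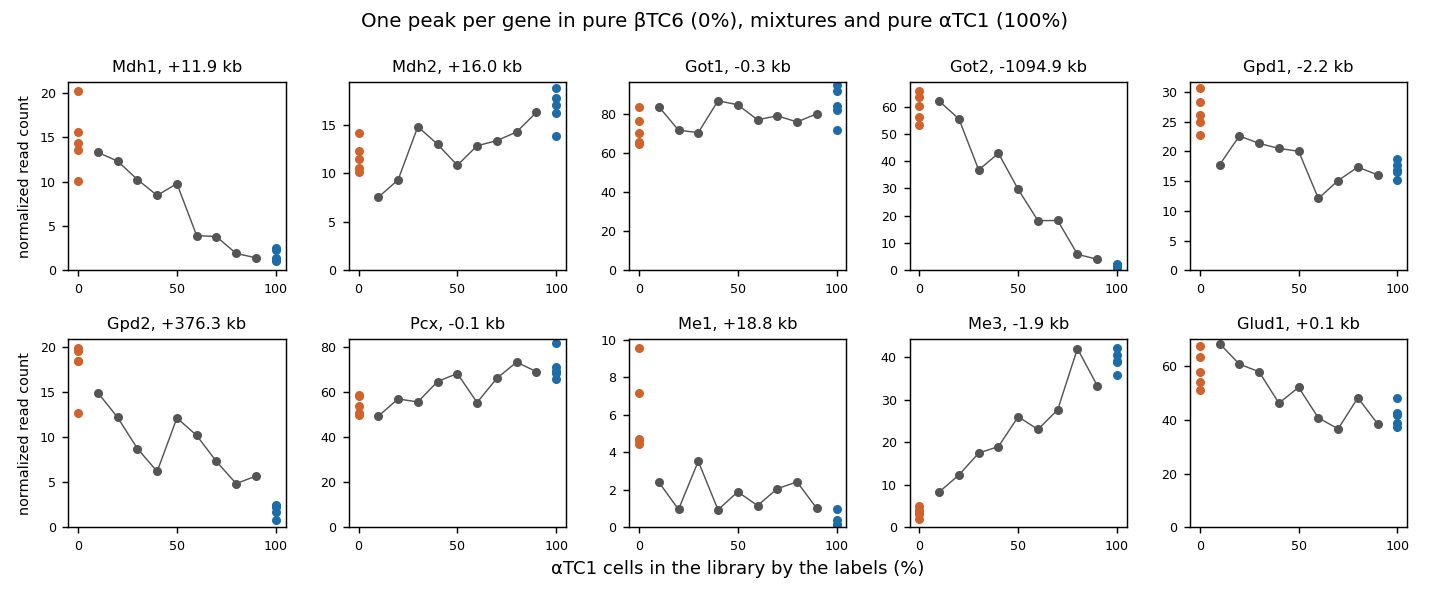
Normalized read count of 1 peak per gene, titled with its deposited distance from a transcript start, in 5 pure βTC6 libraries at 0% (orange), the 9 mixtures (grey, joined) and 5 pure αTC1 libraries at 100% (blue), against the percentage of αTC1 cells given by the labels. The Got2 and Mdh1 panels fall and the Me3 panel rises from 10% to 90% αTC1, each with reversals between some neighbouring mixtures, and the Me1 panel stays at 3.53 or below in the mixtures.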

How the data were processed

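RNA-seq was measured in 3 αTC1 and 3 βTC6 libraries, ATAC-seq in 5 of each line and in 9 mixtures. Groups came from the sample labels, and 0 sample columns were left over. The ATAC-seq signal, as deposited, is a normalized read count: the authors trimmed reads (Trimmomatic 0.32), aligned them to mm9 (BWA 0.7.9a), removed duplicates (Picard 1.95), called peaks per library (MACS2 2.1.0), merged those in at least 2 libraries with DiffBind 2.2.5, annotated them with HOMER 4.6 and scaled read counts by TMM. In each library 100% of values were whole multiples of the lowest (tolerance 0.01 reads), which gave back whole reads, and no value is 0. The expected counts and the FPKM values were deposited by the authors from the same run of RSEM 1.2.12 after Trim Galore and Bowtie 2, on Ensembl transcripts. Both RNA-seq units divide reads with several origins by estimate. Peak type columns hold the authors' own calls and were not used.

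Expected counts were rounded and tested with edgeR 4.0.16 (glmQLFit, glmQLFTest, TMM) among genes that reached an FPKM of 1 in every library of a line. TMM stood in for the study's spike-in factor correction, which was not rerun. Peaks were tested with limma 3.58.1 (lmFit, eBayes with trend) on log2 of the value plus 1. p-values were adjusted by Benjamini-Hochberg over all features tested. The SE of a gene is its absolute log2 fold change over the square root of edgeR's F. Both tests were checked on simulated data. R 4.3.3, DESeq2 1.42.0, Python 3.11.15, pandas 2.3.3, scipy 1.17.1 and matplotlib 3.10.9 were used. Gene positions came from GENCODE vM1 on mm9, which lacks 67 identifiers of the RNA-seq tables, and sequences from the NCBIM37 (mm9) genome. A count of 3 was taken as the floor of detection, 1.38e-05% of counts in the shallowest RNA-seq library and 6.82e-05% in the shallowest ATAC-seq library, for counting error only.

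The enzymes and the gene lists were chosen with earlier results of these data known. Named were all 10 enzymes, list genes past both thresholds or with the largest change in their role, the peak nearest each start, and up to 4 peaks per gene past both thresholds. A few further carriers, Pdhb, Gpd1l and neighbouring genes were named after their values were seen. Some genes of the lists are counted but not reported by name here. Mpc1 and Mpc2 were found under older symbols. Replicates 1 to 3 and 4 to 5 of the ATAC-seq form separate processing groups in the study's quality records. Alternatives were the test, scaling, pseudocount, filter, processing group, replicate block and each library left out.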

Additional observations from a re-analysis of the deposited data

Results flagged for a closer look

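Each of the 19 named peaks was examined in 5 αTC1 and 5 βTC6 libraries for a single library far from the other 4, by Dixon's criterion at the 95% level, and 2 of 38 groups were picked out. Chance picks out about 1 in 20 groups. In the Gpd2 peak 376335 bp from the start, βTC6 replicate 3 had 12.7 normalized reads and the next library 18.5. In the start peak of Got2, αTC1 replicate 5 had 68.6 and the next library 76.9. Both peaks keep their direction without that library.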

How the results depend on the processing

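The RNA-seq results kept their sign for all 10 enzymes in all 12 alternatives to the fit reported. Spike-in scaling, which moved the median of all genes by -0.03, left 2 enzymes called higher in βTC6 and 0 in αTC1, and 2 and 11 genes of the surrounding list, against 17.5% and 11.8% of all genes. Leaving out 1 library gave 4 to 5 enzymes higher in βTC6 and 4 in αTC1. Replicate numbers did not pair the libraries (correlations of deviations from -0.05 to 0.02 in RNA-seq and from -0.002 to 0.07 in ATAC-seq), and with a replicate block 5 and 4 enzymes and 47 and 15 peaks were called, the added peak being that at the Mdh1 start. For peaks higher in βTC6, a mean of at least 5 normalized reads left 28, by testing fewer peaks, and a limit of 100 kb left 11, of which 2 were past the fold. This limit, like the merging of similar replicates, was chosen after seeing the data. Past the fold toward βTC6 were 3 peaks with a pseudocount of 5, 8 with quantile normalization and 27 with edgeR on recovered reads, where of all peaks 1668, 5555 and 13794 passed the same rule. Without the fold, edgeR on recovered reads called 25913 and 24484 of all peaks. Peaks higher in αTC1 numbered 9 with replicates 4 and 5 alone, and past the fold 1 with a pseudocount of 5, 1 with replicates 1 to 3 alone and 1 to 2 without single libraries, each time through the Me3 intron peak at the threshold. Quantile normalization turned the start peaks of Pcx (0.067), Me3 (0.025), Got1 (0.24) and Got2 (0.22) and moved that of Mdh1 to 0.73. Over all peaks past the fold the βTC6 share was 52.5% with quantile normalization and 70.6% without it. Without the 2 outermost mixtures 3 peaks passed. With 1 added to FPKM the Gpd1 to Gpd2 difference was 1.28. Where no reason is given the cause was not tested. With 3 RNA-seq libraries per line the ratios could not reach an exact p under 0.1, and peaks near 1 read are set by the floor of the table.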
